A study of Mus musculus with 2 samples.

Results

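The genes described here encode the motors and motor subunits that carry cargo along microtubules: the kinesins, the kinesin light chains, the core subunits of cytoplasmic dynein-1 and its LC8 light chains. Members were the protein-coding genes named Kif or Klc followed by a number, or with names starting Dync1 or Dynll, and 50 of the 55536 annotated genes met this rule, among 22028 protein-coding genes. The rule used names only and no measured value. Another 3 names met it without being protein-coding: the pseudogenes Kif22-ps and Kif4-ps, with 0 counts in both libraries, and the antisense gene Kif16bos, with 1 count in replicate 1 and 0 in replicate 2. By its name the rule also took in Kif1bp, which encodes no motor but a protein that binds kinesin motor domains and keeps them off the microtubule.

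The libraries were made from total RNA of the hippocampus of B6CASTF1/J female mice, hybrids of the C57BL/6J and CAST/EiJ strains, at 36 days of age and with 300 ng of RNA for each library. There was 1 group with 2 libraries, numbered as biological replicates 1 and 2, and no treatment, mutant or other condition to compare. Each library has a biosample of its own but both have the same donor identifier, so the labels leave unsaid whether the tissue came from separate mice, and the spread may be technical. Summed counts were 32443497 and 30125183. All 10 listed markers of hippocampal subfields and all 10 neuronal markers were detected, and so were the 10 oligodendrocyte, 10 astrocyte and 10 microglia markers, as in whole tissue. In such tissue fewer cells of a type and less RNA per cell cannot be told apart.

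Kinesins and dynein use ATP to step along microtubules. Most kinesins walk towards the growing plus end, which in axons points away from the cell body, and dynein walks towards the minus end, so that the families share the outward and inward traffic of organelles, vesicles and RNA in neurons. Other kinesins build the mitotic spindle, work in cilia or take microtubules apart.

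RNA levels are given as TPM, a unit of transcript abundance which corrects for RNA length and so allows genes to be compared. They come from the first of 2 quantifications of the same libraries unless the second is named. Detection means a level of at least 1 TPM in each library. By that rule 35 of the 50 members were detected, or 70.0%, beside 57.6% of all protein-coding genes. The detected members had a median of 47.6 TPM, and all detected protein-coding genes a median of 14.7 TPM. Above 100 TPM stood 9 members, and 23 were above 10 TPM. Together the members took 0.609% of the TPM of protein-coding genes in replicate 1 and 0.594% in replicate 2. Family shares of the members' summed TPM were 20.5% ± 0.091 for the kinesin-1 heavy chains, 19.6% ± 0.23 for LC8, 17.1% ± 0.26 for kinesin-3, 14.6% ± 0.25 for the dynein core and 14.1% ± 0.34 for the light chains (SD, n = 2). Kinesin-2 took 5.64% ± 0.12, Kif1bp 3.21% ± 0.015, kinesin-4 2.50% ± 0.051 and kinesin-13 1.86% ± 0.12. The mitotic kinesins took 0.245% ± 0.010 and the remaining kinesins 0.646% ± 0.067. These groups are the usual kinesin families, except that the mitotic and remaining groups are joined by function or left over.

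**Figure D1:**
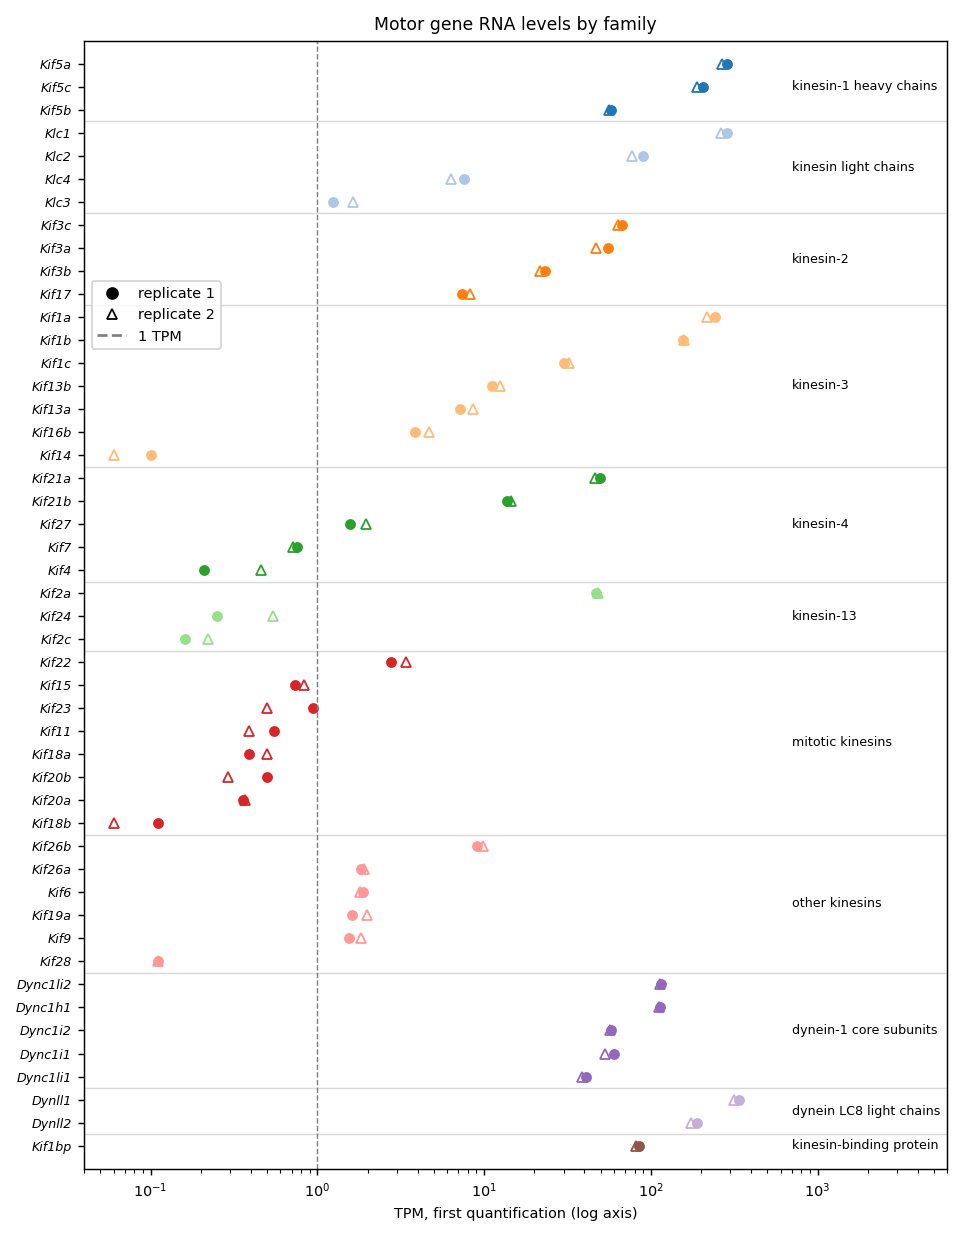
RNA level in TPM of the first quantification (log axis) for the 48 members with a count in both libraries, grouped by family; filled circles are replicate 1, open triangles replicate 2, and the dashed line marks 1 TPM. The axon and synapse transport motors lie to the right, with Dynll1, Kif5a and Klc1 above 250 TPM, and the mitotic kinesins other than Kif22 lie left of the line.

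The kinesin-1 motor is built of heavy chains, which hold the motor domain, and light chains, which bind cargo. Kif5a and Kif5c, whose products are known as the neuronal heavy chains, were far above Kif5b, which is made in most cell types. Kif5a was at 286 and 267 TPM in replicates 1 and 2. Kif5c was at 205 and 190 TPM, and Kif5b at 57.8 and 56.4 TPM. The ranges of the 3 genes did not overlap. Kif5a made up 52.1% ± 0.14 of the summed heavy chain TPM, Kif5c 37.2% ± 0.17 and Kif5b 10.8% ± 0.31. The order was the same in the second quantification, with Kif5b at a larger 16.3%. At the transcript level Kif5a was nearly all 1 form, Kif5a-201, with 98.8% ± 0.32 of the gene's TPM. Kif5c-201 held 95.4% ± 1.19 of Kif5c, and 84.7% in the second quantification.

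Among the light chains Klc1 led, at 285 and 265 TPM, overlapping the range of Kif5a. Klc2 followed at 89.6 and 77.0 TPM. Klc4 was at 7.59 and 6.36 TPM and Klc3, best known from male germ cells, at 1.24 and 1.63 TPM, near the detection limit. Klc1 held 75.0% ± 0.95 of the light chain TPM and Klc2 22.7% ± 0.94. Heavy chain TPM exceeded light chain TPM 1.43-fold in replicate 1 and 1.47-fold in replicate 2, or 1.77-fold and 1.80-fold in the second quantification. Reads at Klc3 cannot be assigned by position alone, since 744 of its 2647 exonic bases overlap the DNA repair gene Ercc2 on the other strand and the sources used here do not say whether counting used the strand.

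Klc1 is spliced into forms that differ in their ends, the part of the light chain that varies between forms. Klc1-202, of 542 codons, held 51.8% ± 3.30 of its TPM, Klc1-203, of 560 codons, 21.8% ± 3.92 and Klc1-201, of 616 codons, 9.05% ± 0.52. The second quantification put these at 44.7%, 32.4% and 14.7%, in the same order. A 27-base coding segment that Klc1-203 has and Klc1-202 lacks lies at chr12:111789460-111789486 (mm10, plus strand). It is shown because it separates the leading forms, with the segment in capitals between 10 bases of coding sequence of the neighbouring exon parts on each side (GENCODE M21).
Klc1 27-base segment: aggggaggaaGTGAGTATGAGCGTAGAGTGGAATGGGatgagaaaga
Transcripts with the segment held 42.9% and 47.4% of the TPM of all transcripts that include or skip it, and 54.2% and 55.1% in the second quantification. The quantifications thus lie on different sides of 50%, with a larger distance between them than between the libraries.

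Kinesin-2 motors pair KIF3A with KIF3B or KIF3C and serve cilia as well as axonal transport. Kif3c was the highest of the group, at 67.1 and 63.4 TPM. Kif3a was at 55.6 and 46.6 TPM, Kif3b at 23.2 and 21.7 TPM, and Kif17, whose product is known for carrying receptors in dendrites, at 7.33 and 8.21 TPM. No ranges overlapped. In the first quantification Kif3c took 44.6% ± 1.08 of the group's TPM and Kif3a 34.8% ± 2.09. In the second, Kif3a was ahead in replicate 1, with 43.3% beside 39.7% for Kif3c, and Kif3c in replicate 2, with 41.1% beside 40.5%, so the order of these genes was not settled there. Kif3c was split between Kif3c-205 at 48.4% ± 0.071 and Kif3c-201 at 48.3% ± 0.57, which have the same 2388 coding bases. Of the 7406 exonic bases of Kif3c, 2617 overlap the antisense gene 1110002L01Rik, which had 172 and 143 counts beside 8229 and 7465 of Kif3c. Kifap3, the gene of the accessory subunit that joins kinesin-2 to cargo and no member by name, was at 77.7 and 70.5 TPM.

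Kinesin-3 includes the fast carriers of synaptic vesicle precursors. Kif1a, a motor of neurons, was at 243 and 218 TPM, and Kif1b, which has vesicle and mitochondrial forms, at 156 and 159 TPM. Kif1c, expressed widely in the body, was at 30.1 and 32.2 TPM. The endosome motors were lower. Kif13b was at 11.2 and 12.5 TPM, Kif13a at 7.14 and 8.54 TPM and Kif16b at 3.87 and 4.68 TPM. Kif14, a cytokinesis motor by function, was at 0.10 and 0.060 TPM on 15 and 9 counts. Among the Kif1 genes, Kif1a held 54.9% ± 2.33, Kif1b 37.6% ± 1.71 and Kif1c 7.44% ± 0.62 of the TPM, and the second quantification kept that order.

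**Figure D2:**
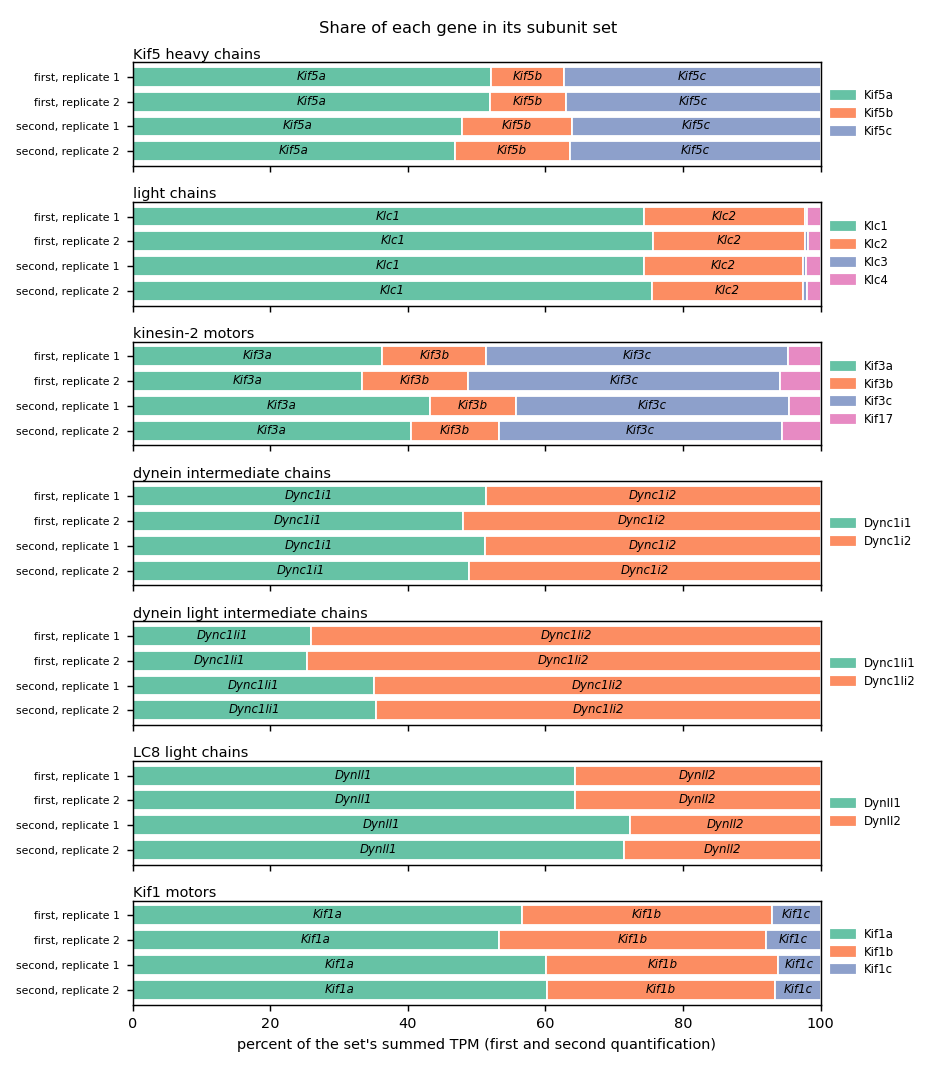
Percent of the summed TPM of each subunit set taken by each gene, with a bar for each library and quantification (first or second). The bars of both libraries are alike within each quantification, while Kif5b, Kif3a, Kif1a, Dync1li1 and Dynll1 take larger shares in the second than in the first.

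Kif1b-203, with 1816 codons, held 82.4% ± 4.55 of Kif1b TPM. This is the long form of the gene. Kif1a-204, with 1697 codons, held 69.7% ± 3.75 of Kif1a, and 46.3% in the second quantification, where the 528-base transcript Kif1a-206 took 29.3% in replicate 1 on 470 counts. A 24-base exon of Kif1a lies at chr1:93026832-93026855 (mm10, minus strand). Transcripts with it held most of the TPM of those that include or skip it, by both quantifications. It is printed because it adds codons to the leading form, with the exon in capitals.
Kif1a 24-base segment: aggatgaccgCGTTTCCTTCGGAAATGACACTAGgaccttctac
Inclusion was 77.3% and 78.7% in replicates 1 and 2, and 69.4% and 69.6% in the second quantification.

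Of the kinesin-4 family, whose members act mainly on microtubule growth, Kif21a was at 49.5 and 46.2 TPM and its relative Kif21b at 13.8 and 14.5 TPM. Kif27, linked to motile cilia, was at 1.56 and 1.95 TPM. Kif7, a regulator of Hedgehog signalling in the primary cilium, was at 0.760 and 0.710 TPM, and Kif4, a chromosome motor, at 0.210 and 0.460 TPM, so neither was called detected. Kif4 overlaps Pdzd11 on the other strand over 832 of its 5514 exonic bases. Among 22 members compared by transcript, Kif21b was the only one whose leading transcript was annotated as a target of nonsense-mediated decay in both quantifications. That transcript, Kif21b-204, held 46.1% ± 1.76 of the gene's TPM, and the coding Kif21b-201 held 39.1% ± 0.028. In the second quantification the shares in replicates 1 and 2 were 55.5% and 46.0% for Kif21b-204 and 28.7% and 39.0% for Kif21b-201. 

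Kif21a showed a wide gap between the quantifications at the transcript level. Kif21a-204 held 63.5% ± 0.62 of its TPM in the first and 17.1% in the second, where Kif21a-205 led with 39.0% in place of 12.7%. Kif21a-202 held 19.1% ± 0.46 in the first and 29.6% in the second. Alternative exons of 39 bases (chr15:90949006-90949044) and 21 bases (chr15:90964975-90964995, both mm10, minus strand) differ between these forms and are printed for that reason, with the exon in capitals.
Kif21a 39-base segment: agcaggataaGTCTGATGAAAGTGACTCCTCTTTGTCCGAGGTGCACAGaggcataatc
Kif21a 21-base segment: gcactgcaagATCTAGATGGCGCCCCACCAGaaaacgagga
The 39-base exon was in 34.6% and 35.4% of the TPM by the first quantification and in 71.9% and 76.9% by the second. The 21-base exon was in 86.4% and 87.7% by the first and in 57.5% and 52.4% by the second. For both exons the libraries lay closer together than the quantifications, so the spread between replicates does not cover the uncertainty of these shares.

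Kinesin-13 motors do not walk but take microtubule ends apart. Kif2a, the one known from neurons, was at 46.9 and 48.2 TPM. The others were near 0, with Kif24, a centriole protein, at 0.250 and 0.540 TPM, Kif2c, a spindle motor, at 0.160 and 0.220 TPM, and Kif2b without a count. The transcript Kif2a-205, only 288 bases long, held 30.7% ± 3.47 of Kif2a TPM on 58.8 and 67.6 counts of the gene's 2930 and 2561. Without transcripts under 300 bases Kif2a was at 33.7 and 32.3 TPM. The leading Kif2a transcript also differed, Kif2a-206 in the first quantification (30.8% ± 0.50) and Kif2a-204 in the second (51.9%). Kif2a-201 was at 25.2% ± 3.37 and 26.6%. Kif2a overlaps Dimt1 on the other strand over 1229 of 6393 exonic bases.

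In the first quantification mitotic kinesins other than Kif22 were below the detection limit. Kif22, a chromosome arm motor, was the single one detected, at 2.77 and 3.41 TPM on 28 and 32 counts, and without transcripts under 300 bases it was at 0.80 and 1.37 TPM, short of detection. Kif15 was at 0.730 and 0.830 TPM and Kif23, a cytokinesis motor, at 0.94 and 0.50 TPM. Kif11, which slides spindle microtubules apart, Kif18a, Kif18b, Kif20a and Kif20b were lower still, with 4 to 61 counts per library. In the second quantification Kif15, at 2.42 and 2.20 TPM, and Kif23, at 2.63 and 2.20 TPM, passed the limit. Protein-coding genes took a larger part of all TPM there. Of the 4338 exonic bases of Kif20a, 1271 overlap Cdc23 on the other strand, which had 1322 and 1194 counts. Of 10 markers of dividing cells, 2 were detected, at a list median of 0.545 TPM and a summed level of 6.97 and 7.45 TPM.

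The remaining kinesins were led by Kif26b, an atypical kinesin without ATP-driven movement, at 9.05 and 9.87 TPM. Its relative Kif26a was at 1.82 and 1.90 TPM. Kif6, Kif19a and Kif9, all linked to cilia, were at 1.88 and 1.79, at 1.61 and 1.99 and at 1.54 and 1.83 TPM. Kif28 was not detected, at 2 and 8.16 counts. It was the only member with a fractional expected count in the first quantification, taken here as the mark of shared reads. Ahctf1 lies on the same strand and has 155 exonic bases in common with Kif28. None of the detected members had the mark, beside 15.3% of detected protein-coding genes. Windows of 100 bases that also occur in other genes were found for Kif24, Dync1i2 and Kif18a as well. Kif12 and Kif2b had 0 counts in both libraries, which allows up to 0.0939 and 0.0989 CPM, counts scaled to library size (3 counts, counting error only).

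Cytoplasmic dynein-1 holds paired copies of a heavy chain, which is the motor, and of intermediate and light intermediate chains, which bind cargo and dynactin. The heavy chain gene Dync1h1 was at 113 and 112 TPM. Dync1i1, the intermediate chain gene known from neurons, was at 60.5 and 53.0 TPM, and Dync1i2, expressed in most cell types, at 57.3 and 57.3 TPM. Their ranges overlapped, and each gave about the same part of the intermediate chain TPM, 49.7% ± 2.33 and 50.3% ± 2.33. Dync1li2 was at 116 and 113 TPM and Dync1li1 at 40.6 and 38.4 TPM, or 74.3% ± 0.47 and 25.7% ± 0.47 of the light intermediate chain TPM. Summed intermediate chain TPM was 1.04 times the heavy chain TPM in replicate 1 and 0.987 times in replicate 2. In the second quantification these ratios were 1.24 and 1.18. For the light intermediate chains the ratio was 1.39 and 1.36, or 1.15 and 1.04 in the second quantification.

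The value of Dync1li2 rests partly on a short transcript. Dync1li2-208, 144 bases long and annotated without a coding sequence, held 38.5% and 40.2% of its TPM on 47.1 and 45.9 of the gene's 5806 and 5233 counts. It had 0 counts in the second quantification. Without transcripts under 300 bases, a cut added after these values were seen, Dync1li2 was at 71.2 and 67.8 TPM, below Dync1h1 instead of above it. Its share of the light intermediate chain TPM was then 63.7% and 63.8%, and the ratio of light intermediate to heavy chain TPM 0.991 and 0.95, below 1 instead of above it. The coding transcripts Dync1li2-201 and Dync1li2-205 held 41.0% ± 0.84 and 12.9% ± 2.25 of the gene's TPM, or 67.5% and 19.7% in the second quantification.

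Both intermediate chain genes have a 60-base exon that adds no shift of the reading frame. The exons lie at chr6:5784439-5784498 in Dync1i1 and chr2:71233649-71233708 in Dync1i2 (mm10, plus strand), as exon 5 of Dync1i1-204 and exon 6 of Dync1i2-208. They are printed together because they correspond in length and sequence, with 46 of 60 bases identical, and the exon is in capitals.
Dync1i1 60-base segment: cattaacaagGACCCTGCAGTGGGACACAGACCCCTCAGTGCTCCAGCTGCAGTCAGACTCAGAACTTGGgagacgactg
Dync1i2 60-base segment: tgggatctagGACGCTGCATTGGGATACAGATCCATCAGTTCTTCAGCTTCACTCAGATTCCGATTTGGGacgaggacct
The Dync1i1 exon was included in 86.1% and 81.8% of the TPM in replicates 1 and 2, and in 88.0% and 86.4% by the second quantification. The Dync1i2 exon was included in 87.6% and 79.8%, and in 73.9% and 65.2% by the second. Both exons were thus on the included side of 50% in every library and quantification. A 33-base segment of Dync1i1 was less certain, at 81.6% ± 0.86 in the first and 56.8% in the second, and an 18-base exon of Dync1i2 stood at 57.6% ± 0.089 and 37.7%, on different sides of 50%.

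LC8 light chains bind dynein and many other proteins, so their RNA need not follow that of dynein. Dynll1 was the highest of all members, at 340 and 315 TPM, and Dynll2 was at 189 and 175 TPM. Their summed TPM was 4.69 and 4.39 times that of Dync1h1, or 6.54 and 5.58 times in the second quantification. Dynll1 held 64.3% ± 0.050 of the LC8 TPM, and 71.9% in the second. The genes encode proteins of the same length, 89 codons, and their coding sequences are printed to show how far reads can tell them apart. Capitals mark the 50 of 267 bases at which they differ, and the stop codon is left out (Dynll1-202 and Dynll2-201, GENCODE M21). In mm10 the genes lie at chr5:115297110-115300999 and chr11:87979525-87987533, both on the minus strand.
Dynll1: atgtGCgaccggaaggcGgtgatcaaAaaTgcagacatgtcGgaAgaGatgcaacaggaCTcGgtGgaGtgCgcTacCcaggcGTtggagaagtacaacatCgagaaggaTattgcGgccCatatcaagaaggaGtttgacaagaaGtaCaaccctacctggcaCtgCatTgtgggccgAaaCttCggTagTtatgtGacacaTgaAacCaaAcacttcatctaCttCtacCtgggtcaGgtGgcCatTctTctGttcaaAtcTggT
Dynll2: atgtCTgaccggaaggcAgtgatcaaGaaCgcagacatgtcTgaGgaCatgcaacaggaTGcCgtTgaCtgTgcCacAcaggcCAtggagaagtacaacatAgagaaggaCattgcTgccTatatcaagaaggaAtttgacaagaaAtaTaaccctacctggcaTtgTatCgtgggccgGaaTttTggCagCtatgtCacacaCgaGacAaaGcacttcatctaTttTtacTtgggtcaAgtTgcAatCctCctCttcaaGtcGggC
The sequences were 81.3% identical, and the longest run without a difference was 16 bases, shorter than the 100-base window that the effective lengths of the first quantification correspond to. No window of that length was shared between the annotated transcripts of the genes. Over 17 pairs of related members, coding identity ran from 66.6% (Kif3a and Kif3c) to 81.3% (the LC8 genes), and the longest identical run was 33 bases, between Kif1a and Kif1b. Dynll2-201 held 93.6% ± 0.80 of Dynll2. The leading Dynll1 transcript was Dynll1-203, annotated without a coding sequence, at 43.3% ± 3.18, beside 39.3% ± 1.00 for the coding Dynll1-202. The second quantification reversed them, with 37.9% and 58.7%.

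Kif1bp, the kinesin-binding protein gene, was at 85.6 and 81.2 TPM, overlapping Klc2. Kif1bp-201 held 80.3% ± 2.78 of its TPM and Kif1bp-207, annotated as a target of nonsense-mediated decay, 16.9% ± 2.18, or 55.9% and 23.9% in the second quantification.

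The 27 members at a mean of 5 TPM or more were ranked by the first quantification. Of the 26 neighbouring pairs, 9 had overlapping ranges over the libraries and are not put in order by range. Kif5a and Klc1 were such a pair, as were Kif1bp and Klc2. Dync1i2, Kif5b, Dync1i1, Kif3a, Kif21a and Kif2a formed a chain in which each overlapped the next, between 46.2 and 60.5 TPM. Kif13a, Kif17 and Klc4 formed another chain. Within each library Kif5a was above Klc1, Dync1i1 above Kif3a and Kif3a above Kif21a, though 2 libraries do not settle this. The other overlapping pairs changed order between the libraries. For pairs without overlap the order holds for the first quantification and need not hold in the second. Klc1 ranked above Kif1a, but in the second Kif1a was at 486 and 480 TPM and Klc1 at 405 and 388 TPM. Dync1li2 ranked above Dync1h1, but in the second Dync1li2 was at 123 and 116 TPM and Dync1h1 at 164 and 172 TPM.

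The libraries were then compared with each other, by log2 ratios of counts scaled with TMM, replicate 2 over replicate 1, for genes whose counts averaged at least 100. With 1 library on each side this comparison has no test. Genes were called apart where the higher library exceeded the lower by more than 25%. Of 30 members with such counts 1 was apart, or 3.33%, beside 6.24% of the 12651 genes compared and 5.04% of the protein-coding genes among them. That gene was higher in replicate 2, as were 4.43% of all genes compared and 3.43% of the protein-coding ones. It was Kif27 (chr13:58287502-58359122, minus strand), with 148 and 179 counts and a log2 ratio of 0.35, with a counting interval of 0.03 to 0.67 (exact binomial, 95%, covering counting error only). In the deposited TPM its log2 ratio was 0.32, just under the limit. Klc4 had the lowest ratio, at −0.25, with an interval of −0.47 to −0.04. All other members lay between these, such as Dync1h1 at −0.01 with 33801 and 31857 counts. Ratios below 0 were found for 21 of the 30 members, beside 55.5% of all genes compared and 56.7% of the protein-coding ones, and the members' median was −0.07 beside −0.02 for all genes. Scaling to the spike-in RNAs adds 0.26 to every ratio and moves the median of all genes to 0.25, and all 21 ratios then lie above 0. The typical spread between the libraries, edgeR's biological coefficient of variation, was 0.0899 over 18246 genes, and its trend had a median of 0.0638 at the members' counts.

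**Figure D3:**
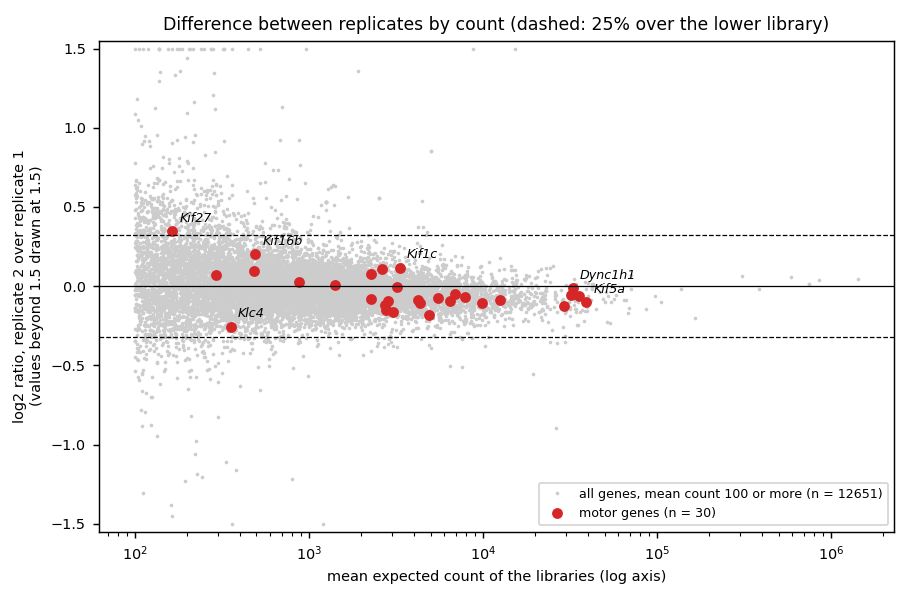
Log2 ratio of replicate 2 over replicate 1 against mean count (log axis) for 12651 genes in grey and the 30 members with enough counts in red; dashed lines mark a difference of 25% over the lower library. Kif27 is the member outside the dashed lines, and the other members lie between them.

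All 3 kinesin-1 heavy chain genes, the 3 light chain genes with enough counts, all 5 dynein core genes and both LC8 genes had ratios below 0 with TMM, and above 0 with spike-in scaling. Kif1c (0.12), Kif21b (0.11), Kif16b (0.20), Kif17 (0.10), Kif26b (0.08), Kif26a (0.07), Kif13a (0.03) and Kif13b (0.01) were above 0 beside Kif27. Neuronal markers, summed over 10 genes, were at 2940 and 2610 TPM, with all 10 ratios below 0 and a median of −0.16. Oligodendrocyte markers were at 1669 and 1274 TPM, and 8 of 10 were apart and lower in replicate 2. Choroid plexus markers were at 27.1 and 1303 TPM, of which Ttr alone held 20.8 and 1237 TPM. Meninges markers were at 55.8 and 108 TPM and motile cilia markers at 14.0 and 22.2 TPM. Among those with enough counts, 7 of 7, 5 of 6 and 3 of 4 in turn were apart. All of these were higher in replicate 2. Astrocyte (2175 and 2182 TPM) and microglia (175 and 174 TPM) markers were nearly level. All 8 cerebral cortex markers were detected too, at 133 and 115 TPM, with every ratio below 0 and 2 apart and lower in replicate 2. Hippocampal subfield markers were at 571 and 531 TPM, with 3 of 10 apart and lower, though 4 of 10 ratios were above 0. Spike-in scaling adds 0.26 to the ratios of these lists as well. The part of these tissue differences in the members' ratios was not tested.

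Genes that work with the motors were examined by lists. Dynactin, the complex that dynein needs for long runs, was detected in full, 12 of 12 genes, led by Capzb at 169 and 156, Dctn1 at 153 and 156 and Capza2 at 127 and 111 TPM. None was apart, and 10 of 12 ratios were below 0 with TMM, before the shift of 0.26 from spike-in scaling. Of 15 dynein regulators and adaptors 12 were detected and none was apart. Pafah1b1, which encodes the dynein activator LIS1, led at 159 and 137 TPM, followed by Bicdl1 at 46.8 and 49.2 and Rab11fip3 at 39.8 and 40.5 TPM. All 22 kinesin cargo adaptors were detected, with Clstn1, a cargo receptor for light chains, at 329 and 318, Mapk8ip3 at 154 and 149 and Kidins220 at 147 and 143 TPM. In that list 1 gene was apart, higher in replicate 2. This was Hap1, named after its value was seen, at 59.4 and 75.6 TPM. Of the other dynein light chains 6 of 7 were detected, led by Dynlrb1 at 120 and 101, Dynlt3 at 49.8 and 45.0 and Dynlt1b at 16.5 and 15.5 TPM. The Dynlt1 copies share reads, so their separate values are uncertain. Kinesins outside the name rule were listed together with the accessory subunit gene Kifap3, and 5 of 7 genes were detected. Kifc2, a motor that walks to the minus end, led at 109 and 114 TPM. Kifap3 came next, then Kifc3 at 24.56 and 24.97 TPM.

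The dynein-2 and axonemal dynein list serves cilia and was low. Of 14 genes listed 12 matched and 8 were detected, at a list median of 2.30 TPM, and the highest were the dynein-2 genes Wdr34 at 12.7 and 14.5, Dync2h1 at 13.8 and 13.2 and Dync2li1 at 7.65 and 8.54 TPM. All 8 with enough counts had ratios above 0, with a median of 0.20, and the axonemal Dnah9 and Dnah2, named after their values were seen, were apart and higher in replicate 2 (0.41 and 0.41 on the log2 scale). This list shares Dnah6 and Dnah12 with the motile cilia markers, neither of which had enough counts to be compared.

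The quantifications were compared gene by gene after rescaling TPM to protein-coding genes, which took 43.9% and 42.4% of TPM in the first and 78.3% and 77.6% in the second. Of the 35 detected members 3 differed by more than 1.5-fold, beside 5.43% of detected protein-coding genes. Dync1li2 was 0.578 times as high in the second, Kif2a 0.630 times and Kif22 0.444 times, and Kif5b, at 1.497 times, was just inside the limit. For these 3 genes short transcripts held a part of the first value, as given above. Among members below detection the second quantification was far higher for Kif24, with 208 and 310 counts in place of 18 and 25. Of its second TPM, 95.5% fell on Kif24-204, a 1151-base transcript without a coding sequence, and 247 of the 1052 windows of 100 bases in that transcript also occur in transcripts of other genes, such as Abhd2 and Lrrc8d. Kif2c was 11.3 times and Kif14 3.51 times as high in the second, on few counts in both.

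**Figure D4:**
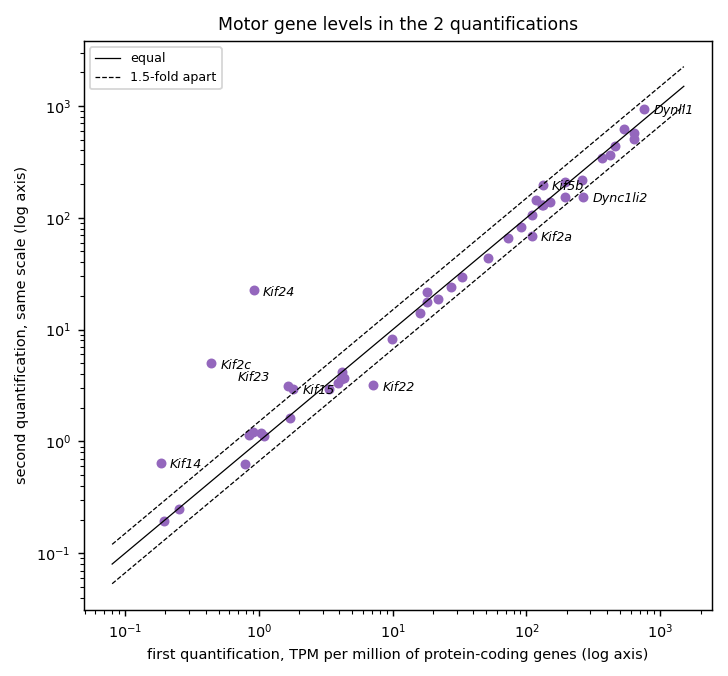
Level of each member in the first against the second quantification, as TPM rescaled to the sum of protein-coding genes (mean of 2 libraries, log axes), with the line of equality and dashed lines at 1.5-fold. Members above 10 on this scale lie near the line except Dync1li2 and Kif2a below it and Kif5b at its upper dashed line, and Kif24 and Kif2c stand far above it.

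For 22 members at 10 TPM or more with several annotated transcripts, 18 had the same leading transcript in both quantifications, or 81.8%, beside 75.9% of 7343 protein-coding genes. The members' share fell below that of protein-coding genes without replicate 1, at 16 of 22 (72.7% beside 75.2%), and with a minimum of 1 TPM, at 25 of 34 (73.5% beside 75.3%), so these shares do not set the members apart. The exceptions were Dync1i2, Dynll1, Kif21a and Kif2a. For Dync1i2 the first quantification put Dync1i2-208 at 50.9% ± 0.15 and the second gave Dync1i2-207 30.6% ± 14.5, with a wide spread between its own libraries. The leading forms of Klc2 were close as well, with Klc2-204 at 41.3% ± 2.00 and Klc2-201 at 40.8% ± 3.41, and the second quantification had 89.1% on Klc2-204 and none on Klc2-201. Dync1h1-201 held 89.0% ± 0.044 and 91.1%. Over all 313 annotated transcripts of the members, the 161 coding ones held 86.0% and 85.4% of the TPM but 97.9% and 97.7% of the counts, so the other forms weigh more in TPM than in reads.

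Coding segments that some transcripts include and others skip were collected for the members at 10 TPM or more, and 21 of 89, in 9 genes, were included at 10% to 90% in both quantifications. Of these, 18 had a length that is a multiple of 3, beside 52 of all 89 segments (58.4%). Many of the 89 were segments of Kif1a and Kif5a that 1 annotated transcript skips, included at 100% in the first quantification. These shares thus do not compare like segments. Segments of a gene are not independent of each other, and the 39-base and 51-base segments of Kif13b replace one another. The 61-base and 68-base segments of Kif21a, neither a multiple of 3, adjoin each other. The same 18-of-21 count, though not of the same segments, lay on the same side of 50% in both quantifications. The median distance between quantifications was 11.3 percentage points, against 2.11 points between libraries in the first and 4.84 in the second. Single segments differed more, by up to 39.3 points between quantifications and by up to 11.5 and 21.6 points between libraries in the first and second. Beside the segments printed above, a 9-base exon of Kif3a was included at 79.0% ± 0.57 and 82.6%, a 42-base exon of Dync1li2 at 76.3% ± 2.89 and 78.6%, and a 114-base exon of Kif2a at 55.2% ± 1.49 and 61.9%. These shares come from the assignment of reads to whole annotated transcripts and not from reads counted at the splice junctions.

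**Figure D5:**
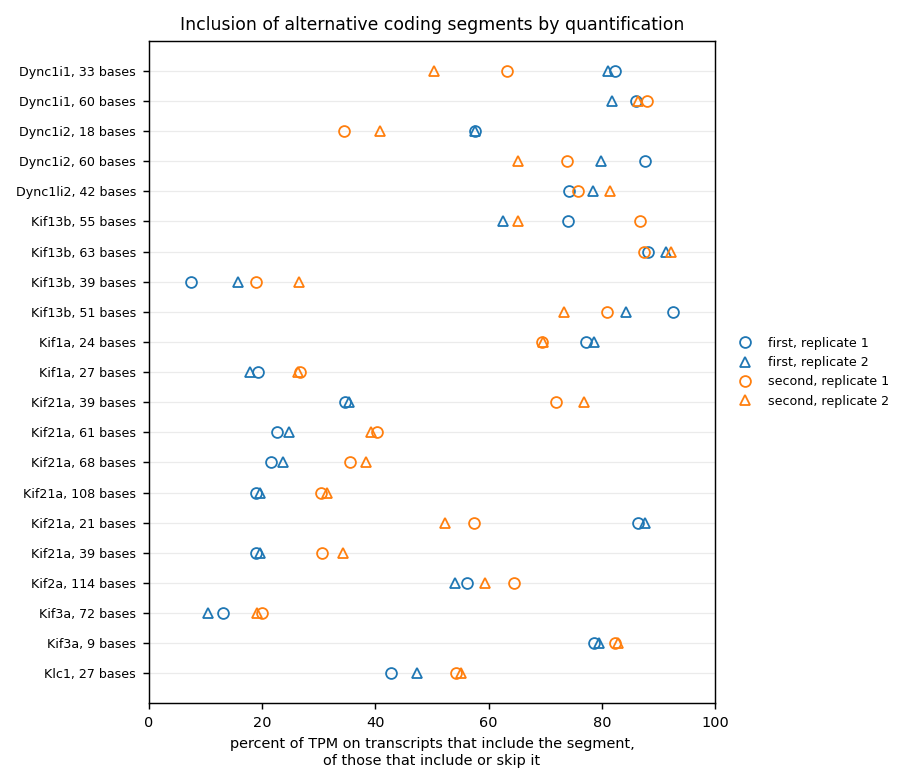
Percent of TPM on transcripts that include each of 21 alternative coding segments, of those that include or skip it, by library (circle, replicate 1; triangle, replicate 2) and quantification (blue, first; orange, second). The Kif21a segments of 39 bases at chr15:90949006-90949044 (35.0% and 74.4% on average) and of 21 bases lie far apart between quantifications. Another Kif21a segment of 39 bases, at chr15:90976471-90976509, is at 19.4% and 32.4%. A 55-base segment of Kif13b lies far apart between the libraries of the second quantification (86.7% and 65.1%).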

How the data were processed

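The labels and file listings name mouse build mm10 and GENCODE M21. In the gene and first transcript tables the authors deposited expected counts, TPM and the percent of the gene's TPM held by each transcript, per the file headers; the second transcript table holds estimated counts and TPM of another quantification. The software is not given in the sources used here. The members and gene lists were chosen with earlier results of these data known.

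Expected counts were rounded and scaled with edgeR 4.0.16 (TMM, prior count 0.5) in R 4.3.3. Second-quantification values were summed by gene. Entries without a gene name (4 and 4.88 counts, 1.23e-05% and 1.62e-05% of all) were left out. An expected count over 0.005 from a whole number marked shared reads. The ratio step was tested on simulated data. Python 3.11.15, pandas 2.3.3 and Biopython 1.88 did the rest; coding sequences replaced a planned comparison of proteins. The segment inclusion readout was added after the data were seen. DESeq2 1.42.0, total count, spike-ins, TPM, other limits and each replicate alone were alternatives.

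All members were named, with both values at 5 TPM or more and for the 3 highest below that in each family. For the 12 highest members and those with differing or non-coding leading transcripts, the leading transcript and others at 10% or more in both quantifications were named. Klc1-201, Kif1a-206, Klc2-201, Kif2a-205, Dync1li2-208 and Kif24-204, and the alternative segments, were chosen after their values were seen. The pathway genes named were the 3 highest of each list and any over 1.5-fold apart. Kif1bp was given a group of its own after the files were read, and other names were added where the text says so.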

Additional observations from a re-analysis of the deposited data

How the results depend on the processing

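No paired analysis was possible because the design holds 1 group. The count of 1 member apart between replicates (over 25%) was 0 at 1.5-fold, 0 at 2-fold, 0 in the deposited TPM, 2 in the second quantification (Kif24 beside Kif27), 7 under spike-in scaling, 8 with counts averaging at least 10 and 11 with no count filter. The share of all genes apart is given only for TMM with counts averaging at least 100. The counts at the other settings thus do not set the members apart from other genes. The members' median ratio of −0.07 became 0.19 under spike-in scaling. Over all 12651 genes the corresponding values were −0.02 with TMM and 0.25 with the spike-ins. In the second quantification the family shares were 20.8% (kinesin-1 heavy chains), 11.6% (light chains), 5.89% (kinesin-2), 18.6% (kinesin-3), 2.41% (kinesin-4), 1.66% (kinesin-13), 12.2% (dynein core), 22.3% (LC8) and 3.60% (Kif1bp), each moved by more than the SD between libraries, so that LC8 and not the kinesin-1 heavy chains had the largest share. The 3 members over 1.5-fold apart between quantifications became 1 at 2-fold, and 3 to 4 with each replicate alone. The count of 35 detected members ran from 27 (5 TPM) to 40 (second quantification), and was 34 without transcripts under 300 bases, a setting added after seeing the data. The second quantification added Kif7, Kif24, Kif2c, Kif15 and Kif23. For these changes the cause was not tested, except that the filters change how many genes are compared. With 2 libraries and counts under 100, ratios of the mitotic kinesins and of Kif4, Kif24, Kif2c, Kif14 and Kif28 are limited by counting error.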
